A study of Mus musculus with 4 samples.

Results

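The genes described here encode the serine/arginine-rich (SR) splicing factors, the heterogeneous nuclear ribonucleoproteins (hnRNPs) and the core proteins of the spliceosome. They were taken as the protein-coding genes whose symbol starts with Srsf and a digit, Hnrnp, Sf3a or Sf3b, Snrp, or Prpf, which gave 65 of the 53465 genes in the expression table. These were 11 Srsf, 20 Hnrnp, 9 Sf3, 12 Snrp and 13 Prpf genes. Within the set, membership followed symbol and biotype and not a measured value, although the gene families themselves were picked with earlier results of these data known, and 5 processed pseudogenes with matching symbols were left out by their biotype. Mouse cells that the study names female germline stem cells (FGSCs), a line cultured from the ovary, were infected with lentivirus. It carried either a control short hairpin RNA (shNC) or a hairpin against Nat10 (shNAT10). NAT10 is the acetyltransferase that writes N4-acetylcytidine (ac4C) on RNA, and infected cells were kept by drug selection. Each group had 2 libraries, described by the study as biological replicates, and the labels do not say whether they came from separate cultures, so p-values measure only the spread between these libraries. The study kept its mice on a C57BL/6J background, and the strain and age of the animals behind the FGSC line are not given in the sources used here.

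Splicing removes introns in the spliceosome, which is built from small nuclear ribonucleoproteins (snRNPs), most of them an RNA with a ring of Sm proteins and particle-specific proteins. SF3A and SF3B belong to the U2 snRNP that holds the branch point. Many, but not all, of the Prpf proteins act in the U5 and tri-snRNP particles and in the steps of activation and catalysis. SR proteins bind exons and mostly promote the use of nearby splice sites, whereas hnRNPs coat nascent transcripts and often oppose it. Both groups are known to regulate their own transcripts through alternative exons that send the RNA to nonsense-mediated decay.

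Nat10, the target of the hairpin, stood at 7.79 and 5.42 FPKM (fragments per kilobase of exon, divided by a factor the authors set for each library) in shNC-1 and shNC-2 and at 2.95 and 3.04 FPKM in shNAT10-1 and shNAT10-2. This was a log2 fold change of -1.09 (SE 0.21), with an adjusted p = 0.123 in limma. With 2 libraries in each group the smallest two-sided exact permutation p is 0.3333, which Nat10 reached. A fit without 1 library leaves a group of 1, whose spread is assumed to be that of the other group. Leaving out a shNAT10 library kept the fold change at -1.07 (without shNAT10-1) and -1.11 (without shNAT10-2) but ended the call. The libraries held 11057922 to 14902438 fragments, recovered from the FPKM steps. The factors that divide the FPKM were not these totals: shNC-1 had the most fragments and the smallest factor. rRNA-related loci took 48.3% and 38.4% of the fragments in shNC and 26.8% and 28.6% in shNAT10. These loci included annotated rRNA genes, Lars2, Rn7sk, and the lncRNA genes Gm26917 and Gm42418, both of which the study reports as reduced in shNAT10 by qPCR. The part of that difference in the results below was not tested. Of the defining germline markers, Pou5f1, Dppa3 and Dazl were listed at 0 in every library and Ddx4 reached 0.053 FPKM in shNAT10-1 alone, so most of the summed level of the 10 germline genes examined (34.5 and 44.0 FPKM in shNC, 42.4 and 50.1 FPKM in shNAT10) came from Kit, which was called lower (-0.60), and Ifitm3, which was not called. Of the 4 germline genes tested, 3 had both shNAT10 libraries above both shNC libraries, beside 23.9% of all genes tested, and the median was 0.49. The summed level of 8 pan-leukocyte genes was 518 and 575 FPKM in shNC against 410 and 430 FPKM in shNAT10. Of these 8 genes, 6 were past the threshold and lower, beside 7.83% of all genes tested. The summed level of 8 mast cell genes stayed between 288 and 308 FPKM, most of it Cpa3, with Fcer1a and Tpsb2 at 0. Of the 4 mast cell genes tested, Ms4a2 was called higher (2.12) and Gata2 lower (-0.33), and the median was 0.52. The summed 8 granulosa genes ranged from 2.52 to 3.93 FPKM, with Foxl2 and Fshr at 0. The summed 8 fibroblast genes ranged from 47.4 to 65.2 FPKM, and 3 of the 7 tested were called higher, beside 8.41% of all genes tested. The name FGSC is the study's, which reports Ddx4 and Oct4 (Pou5f1) in its FGSCs by RT-PCR and immunofluorescence. In these libraries the RNA of both genes was at or near 0, while the leukocyte and mast cell sums exceeded the germline sum. The cell types in the cultures, and their part in the results below, were not tested. In such bulk RNA a change in the number of cells of a type cannot be told apart from a change in RNA per cell.

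Among the splicing genes, 4 SR protein genes were called higher, with log2 fold changes of 0.36 to 0.43, while Hnrnpa1 and the second-step factor gene Prpf18 fell the most, and most of the remaining genes did not pass the test. A gene was called when its fold change exceeded 1.2 with an unadjusted limma p of at most 0.05. Of the 65 genes, 63 could be tested, and each of the 63 had a mean of at least 1 FPKM. Srsf12 had a single fragment over the 4 libraries, and Snrpn, the neuronal Sm protein gene, was listed at 0 in all. The called genes were 9 higher in shNAT10 (14.3% of those tested) and 6 lower (9.52%), with 48 not called. Over all 20116 genes tested, 8.41% were called higher and 7.83% lower, and over the 9714 protein-coding genes with a mean of at least 1 FPKM these shares were 11.1% and 10.6%. The order of these shares depended on the fit: without the variance trend 2 of the 63 were higher (all genes 1536 of 20116), without shNC-2 4 (all genes 1731) and without shNAT10-2 3 (all genes 1179). The median log2 fold change of the 63 was 0.03, against 0.01 for all genes tested. Both shNAT10 libraries lay above both shNC libraries for 20 of the 63 genes and below them for 13, where 23.9% and 24.1% of all genes did so. None of the 63 genes had an adjusted p under 0.05 by limma, where 0.437% of all genes tested did. An unadjusted p under 0.05 was found for 16 of the 63, beside 3330 of all genes tested (16.6%) and 2168 of the 9714 expressed protein-coding genes (22.3%). When the fragments recovered from the FPKM were tested with limma-voom, 6 of the 63 had an adjusted p under 0.05 (Srsf1, Srsf2, Srsf6, Srsf7, Hnrnpa1 and Prpf18), where 7.87% of all genes did.

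**Figure D1:**
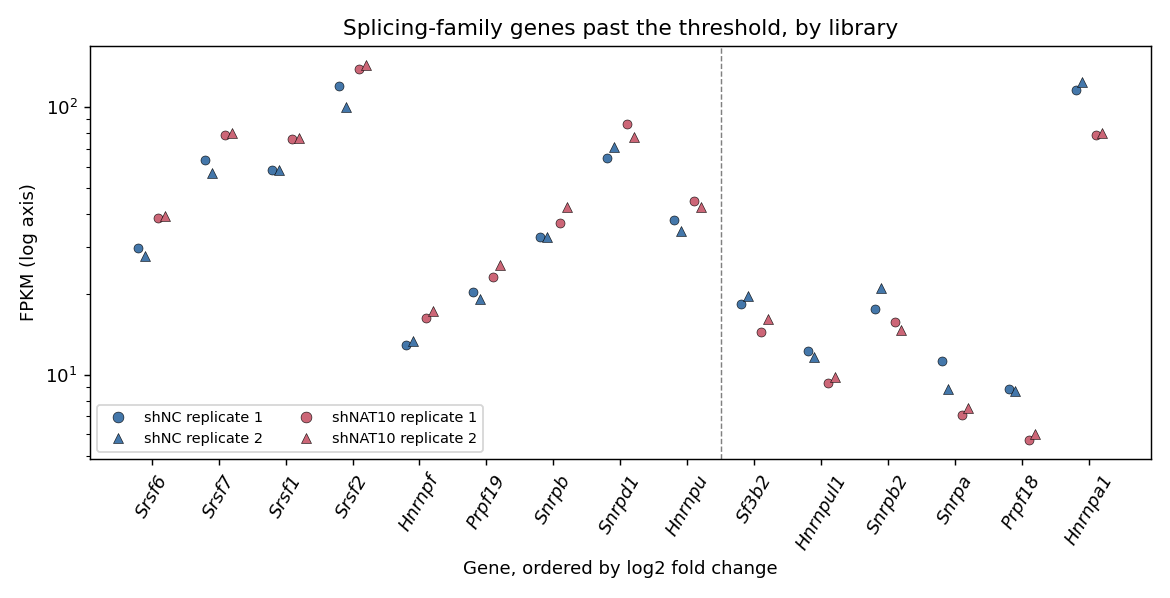
FPKM (log axis) of the 15 called splicing genes in each library, ordered by log2 fold change, with circles for replicate 1 and triangles for replicate 2, shNC in blue and shNAT10 in red. To the left of the dashed line both shNAT10 points lie above both shNC points for the 9 higher genes, and to its right they lie below for the 6 lower genes, from Sf3b2 to Hnrnpa1 (116 and 124 FPKM against 78.5 and 80.1 FPKM).

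Of the 10 SR protein genes tested 4 were called higher and 0 lower, beside 8.41% and 7.83% of all genes and 11.1% and 10.6% of expressed protein-coding genes, and the difference from other families was not tested. Srsf1, the founding SR protein, went from 58.5 and 58.1 FPKM (shNC) to 75.9 and 76.9 FPKM (shNAT10). Srsf6, a close relative of SRSF4 and SRSF5, held 29.9 and 27.7 FPKM against 38.4 and 39.1 FPKM. Srsf7, an SR protein with a zinc knuckle that also acts in mRNA export, held 63.5 and 56.6 FPKM against 78.7 and 80.3 FPKM. All 3 genes were separated by group, with both shNAT10 libraries close together and above both shNC libraries. Srsf2 (SC35), a marker protein of nuclear speckles, held 120 and 100 FPKM against 138 and 144 FPKM, so its shNC libraries were the farther apart. The log2 fold changes were 0.39 (SE 0.08) for Srsf1, 0.43 (SE 0.09) for Srsf6, 0.41 (SE 0.09) for Srsf7 and 0.36 (SE 0.12) for Srsf2. Their limma adjusted p-values were 0.126, 0.132, 0.163 and 0.245, in the same order. By limma-voom on the recovered fragments the adjusted p-values were 0.0054, 0.0077, 0.0082 and 0.0166. Srsf1 and Srsf6 stayed called whichever library was left out. Srsf2 was not called after quantile normalization (0.33). Srsf7 lost its call without shNAT10-1 (0.42) or shNAT10-2 (0.39), and Srsf2 without shNC-2 (0.24), shNAT10-1 (0.39) or shNAT10-2 (0.34).

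The 150 bases before the start of these 4 genes are shown because the genes were called in the same direction and because their promoters differ in composition, with that of Hnrnpa1, the gene that fell the most, beside them. The sequences are from RefSeq on GRCm38.p6, on the strand of the gene, with capitals marking exact matches on either strand. The letters searched were TATAA for the TATA element, CCAAT for the box of that name, GGGCGG for the GC box, TGACG for a partial cyclic AMP response element (partial CRE, not the full palindrome), CCGGAA for the core of ETS-family sites and CGCATGCG for the core of NRF1 sites. No matches overlapped in these sequences.
Srsf1, chr11:88047223-88047372, plus strand: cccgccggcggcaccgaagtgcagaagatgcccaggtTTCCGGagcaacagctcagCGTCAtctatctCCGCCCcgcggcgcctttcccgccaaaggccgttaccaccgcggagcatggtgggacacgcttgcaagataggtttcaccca
Srsf2, chr11:116853095-116853244, minus strand: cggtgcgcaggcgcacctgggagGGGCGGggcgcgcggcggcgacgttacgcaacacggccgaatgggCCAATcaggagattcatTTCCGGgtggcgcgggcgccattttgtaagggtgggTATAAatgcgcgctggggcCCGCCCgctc
Srsf6, chr2:162931358-162931507, plus strand: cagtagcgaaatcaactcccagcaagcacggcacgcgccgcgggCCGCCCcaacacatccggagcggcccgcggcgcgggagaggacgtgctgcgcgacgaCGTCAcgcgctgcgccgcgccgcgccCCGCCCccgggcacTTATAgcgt
Srsf7, chr17:80207306-80207455, minus strand: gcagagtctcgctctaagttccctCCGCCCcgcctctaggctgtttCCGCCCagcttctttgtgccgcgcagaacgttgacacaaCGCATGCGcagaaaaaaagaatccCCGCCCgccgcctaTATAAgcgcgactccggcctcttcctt
Hnrnpa1, chr15:103240247-103240396, plus strand: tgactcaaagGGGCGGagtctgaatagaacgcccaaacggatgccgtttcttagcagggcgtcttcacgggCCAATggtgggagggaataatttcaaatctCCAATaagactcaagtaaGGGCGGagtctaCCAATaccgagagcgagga

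A GC box stood in each of the 5 sequences. It was in 13 of the 14 RefSeq promoters of Srsf genes (92.9%), against 28.6% of all 32851 promoters of the same length. In the other families it was in 55.6% of Hnrnp, 42.9% of Prpf, 37.5% of Sf3 and 21.4% of Snrp promoters. The set of all promoters was not restricted to expressed genes, here or for the other motifs. A TATA element stood before Srsf2, Srsf6 and Srsf7 but not before Srsf1, and was held by 28.6% of Srsf promoters, 0 of 27 Hnrnp promoters and 14.2% of all promoters. The ETS core was found before Srsf1 and Srsf2, and in 35.7% of Srsf promoters against 9.23% of all. A larger share than in Srsf held it among Sf3 (6 of 8), Snrp (42.9%) and Prpf (42.9%) promoters, and a smaller one among Hnrnp promoters (7.41%). The NRF1 core before Srsf7 was also in 14.3% of Srsf promoters and 1.29% of all. It was in 21.4% of Snrp promoters, 7.41% of Hnrnp promoters and 0 of the Sf3 and Prpf promoters. CCAAT boxes were found before Srsf2 and at 3 places before Hnrnpa1, and in 55.6% of Hnrnp promoters, 21.4% of Srsf promoters and 24.5% of all. Partial CRE matches stood before Srsf1 and Srsf6, in 42.9% of Srsf and 44.4% of Hnrnp promoters against 13.3% of all. GC content was 64.0% for Srsf1, 69.3% for Srsf2, 74.7% for Srsf6 and 59.3% for Srsf7, and 51.3% for Hnrnpa1. No motif of the 6 was shared by the 4 rising SR genes and missing before Hnrnpa1. RefSeq promoters were matched for 57 of the 65 genes, and these matches describe letters, not bound sites.

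The other SR genes did not pass the test. Srsf3, a small SR protein that stood next after Srsf2, Srsf7 and Srsf1 in mean level, held 52.0 and 46.3 FPKM against 54.5 and 49.2 FPKM, with a log2 fold change of 0.08 (95% interval from limma -0.20 to 0.36, as for the other intervals given). Srsf10, an SR-like protein that represses splicing when dephosphorylated, had both shNAT10 libraries above both shNC libraries (19.96 and 19.81 against 22.63 and 21.73 FPKM), with a log2 fold change of 0.16 (limma interval -0.06 to 0.38). Srsf4 had the lowest log2 fold change of the family, -0.20, at 1.65 and 1.58 against 1.19 and 1.63 FPKM. Srsf5, Srsf9 and Srsf11 lay between -0.10 and 0.07. Whether the rise of 1 SR gene differed from that of another was not tested. Summed over the family, the SR genes reached 392 and 351 FPKM in shNC against 452 and 458 FPKM in shNAT10. Of the other sums, that of SF3A and SF3B was lower in both shNAT10 libraries, those of the hnRNPs and snRNP proteins overlapped, and that of the Prpf genes stayed between 112 and 116 FPKM. An annotated transcript subject to nonsense-mediated decay was carried by 9 of the 11 Srsf genes (81.8%), 10 of the 20 Hnrnp genes, 7 of the 13 Prpf genes (53.8%), 4 of the 12 Snrp genes (33.3%) and 1 of the 9 Sf3 genes (11.1%), against 30.0% of protein-coding genes with a mean of at least 1 FPKM. The values are for whole genes, so productive and decay-bound transcripts were not separated.

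**Figure D2:**
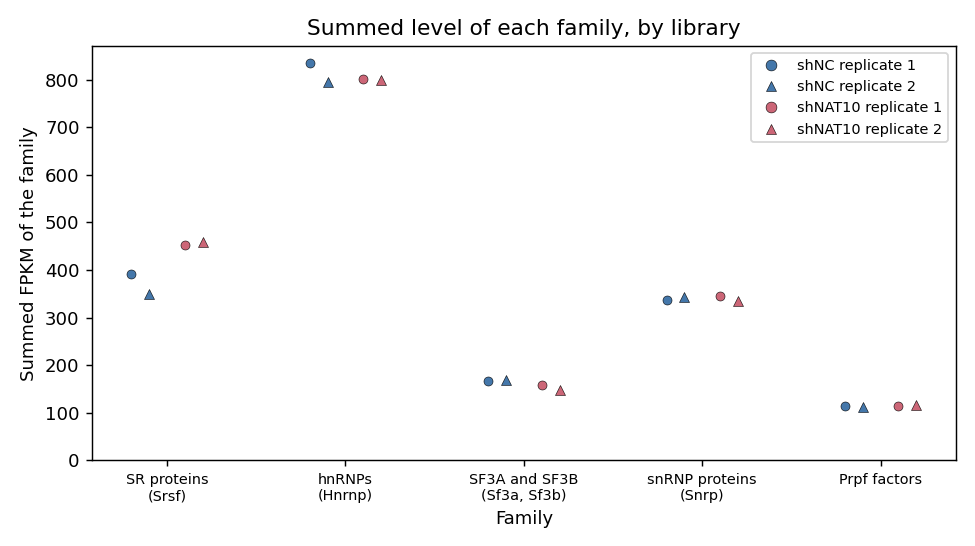
Summed FPKM of the members of each family in each library, with circles for replicate 1 and triangles for replicate 2, shNC in blue and shNAT10 in red. The SR proteins are at 392 and 351 FPKM in shNC against 452 and 458 FPKM in shNAT10, and the Hnrnp sums lie between 795 and 835 FPKM with the groups overlapping.

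Of the 20 hnRNP genes 2 were called higher and 2 lower, 10% each way and close to the shares of 11.1% and 10.6% over expressed protein-coding genes, with a median log2 fold change of 0.05. Hnrnpa1, which represses exon inclusion and shuttles between nucleus and cytoplasm, fell from 116 and 124 FPKM to 78.5 and 80.1 FPKM. Its log2 fold change of -0.60 (SE 0.08) was the largest of the 63 in size, with an adjusted p = 0.0818 in limma and an adjusted p = 5.5e-05 in limma-voom. It stayed called whichever library was left out, at -0.65 to -0.55. Hnrnpa1 lies at chr15:103240432-103246692 on the plus strand (GRCm38, GENCODE M21), and 44.8% of its 75-base stretches also occur in 14 other genes. Its count may therefore depend on how reads with several matches were treated, which was not tested. Fragments assigned to the 12 of those genes in the expression table came to 0.937% to 1.12% of the total with Hnrnpa1 in each library. Hnrnpul1, an hnRNP U-like protein, held 12.3 and 11.6 FPKM against 9.32 and 9.83 FPKM, with a log2 fold change of -0.32 (limma adjusted p = 0.237). The call for Hnrnpul1 was lost without shNC-1 (-0.28), shNAT10-1 (-0.28) or shNAT10-2 (-0.36).

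Hnrnpf, which binds G-rich sequence, held 12.9 and 13.4 FPKM in shNC against 16.3 and 17.3 FPKM in shNAT10. The fold change of Hnrnpf on the log2 scale was 0.35 (limma adjusted p = 0.196) and was lost as a call without shNAT10-2 (0.31). Of its 75-base stretches 55.9% occur in 10 other genes, and the 9 of them in the expression table took 27.3% to 30.2% of the summed fragments in the 4 libraries. Hnrnpu, a scaffold protein of chromatin and RNA, held 37.8 and 34.4 FPKM against 44.7 and 42.4 FPKM, with a log2 fold change of 0.27 (limma adjusted p = 0.266). Without shNC-2 (0.20), shNAT10-1 (0.23) or shNAT10-2 (0.31) Hnrnpu was no longer called. The most abundant hnRNP genes besides Hnrnpa1 were not called: Hnrnpab held 151 and 130 against 157 and 149 FPKM (0.13, limma interval -0.15 to 0.42). Hnrnpc, which binds uridine tracts in pre-mRNA, held 113 and 121 against 105 and 110 FPKM (-0.12, limma interval -0.35 to 0.11). Hnrnpa2b1, which like Hnrnpc is counted among the m6A readers, held 80.5 and 82.3 against 83.6 and 85.7 FPKM (0.06, limma interval -0.15 to 0.26). The remaining 13 genes of the family ran from -0.22 (Hnrnpa3) to 0.28 (Hnrnpdl). Over the family both shNAT10 libraries lay above both shNC libraries for 8 of the 20 genes and below for 3, beside 23.9% and 24.1% of all genes, and the sums overlapped, at 835 and 795 FPKM in shNC against 802 and 798 FPKM in shNAT10.

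**Figure D3:**
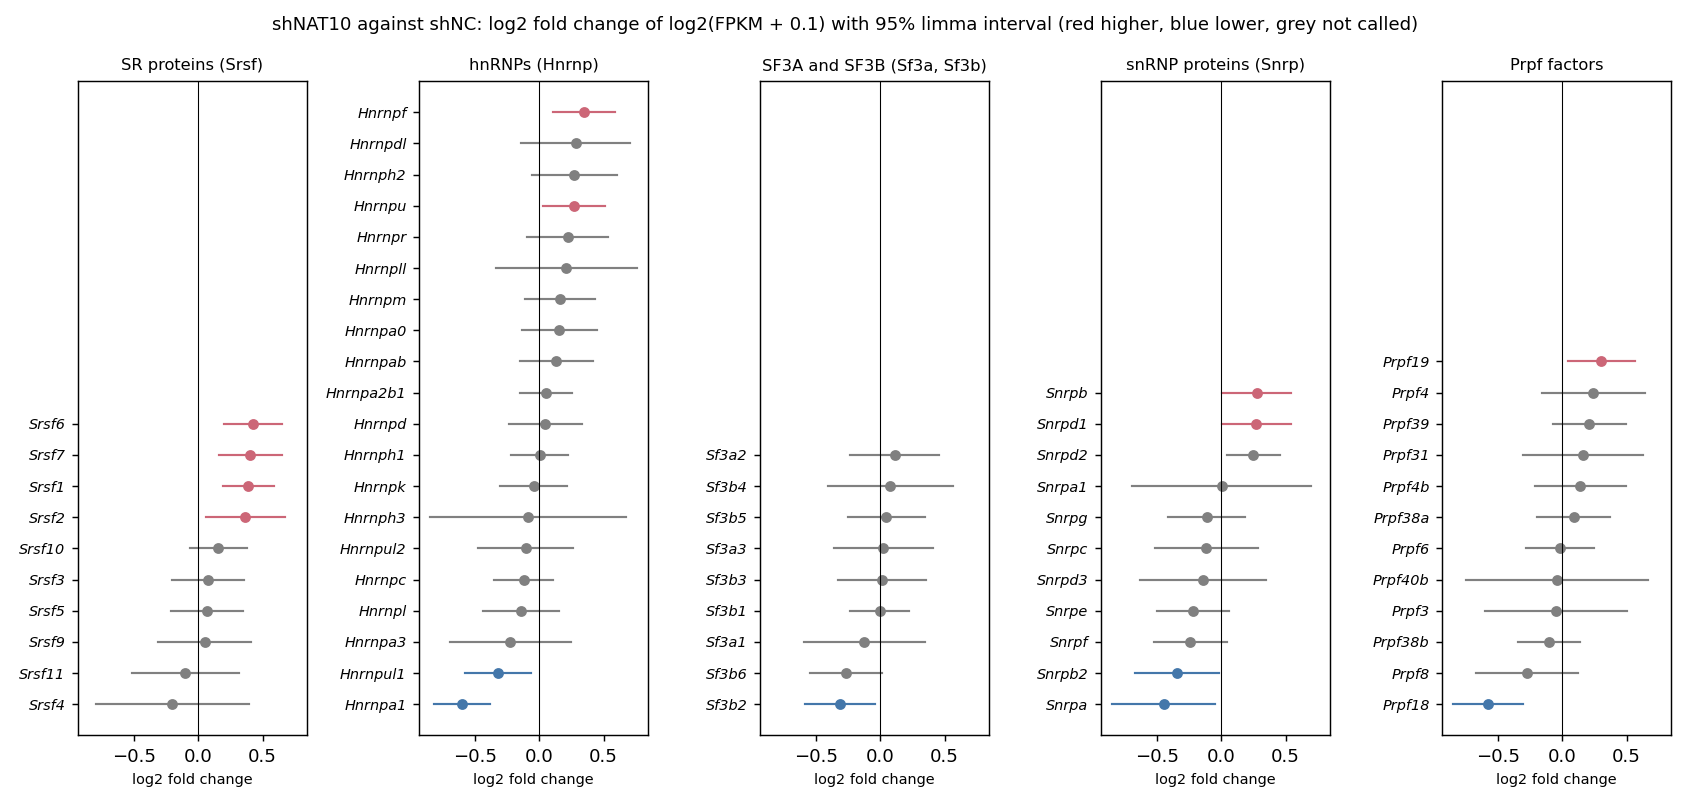
Log2 fold change of shNAT10 over shNC for 62 of the 63 tested genes on the log2(FPKM + 0.1) scale, 1 panel a family, with bars for the limma confidence interval and colour for the call (red higher, blue lower, grey not called). The 4 called SR genes stand between 0.36 and 0.43, whereas the other families have called genes on both sides of 0 or, for SF3A and SF3B, only Sf3b2 at -0.31.

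In the SF3A and SF3B complexes 1 of 9 genes was called, and it was lower, beside 10.6% of expressed protein-coding genes. Sf3b2, an SF3B subunit that binds next to the branch point, held 18.4 and 19.7 FPKM in shNC against 14.5 and 16.2 FPKM in shNAT10, with a log2 fold change of -0.31 (limma adjusted p = 0.259). The call ended with any 1 library left out, at -0.36 (without shNC-1), -0.26 (without shNC-2), -0.23 (without shNAT10-1) and -0.39 (without shNAT10-2). Sf3b6, the subunit in contact with the branch adenosine, was the most abundant of the family and showed 60.4 and 65.0 against 55.7 and 48.7 FPKM (-0.27, limma adjusted p = 0.316), short of the threshold though without overlap. Sf3b1, the large scaffold of the complex, held 51.3 and 47.4 against 50.2 and 48.2 FPKM, a difference of less than the spread between replicates (0.00, limma interval -0.23 to 0.22). Sf3a2 had the highest value of the family, 0.11, and Sf3a1, Sf3a3, Sf3b3, Sf3b4 and Sf3b5 lay between -0.12 and 0.08. The summed family level was 167 and 168 FPKM in shNC against 159 and 149 FPKM in shNAT10.

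Of the 11 snRNP protein genes tested 2 were called higher and 2 lower, beside 11.1% and 10.6% of expressed protein-coding genes, with a median log2 fold change of -0.12. The rising pair belongs to the Sm ring: Snrpb held 32.7 and 32.8 FPKM against 36.9 and 42.6 FPKM (0.28, limma adjusted p = 0.292). Snrpd1 held 64.8 and 71.1 FPKM against 86.7 and 77.5 FPKM (0.27, limma adjusted p = 0.298). Snrpd2, another Sm gene, passed on its unadjusted limma p but not on its fold change (0.25, adjusted p = 0.240), at 31.2 FPKM in both shNC libraries and 37.5 and 36.8 FPKM in shNAT10. The other Sm genes had values below 0 and were not called, at -0.11 for Snrpg (50.5 and 49.8 against 50.7 and 42.4 FPKM), -0.14 for Snrpd3, -0.22 for Snrpe (58.1 and 66.3 against 51.1 and 55.5 FPKM) and -0.24 for Snrpf. Of the 75-base stretches of Snrpf 85.4% occur in other genes. The falling pair encodes the particle-specific proteins of U1 and U2. Snrpa held 11.3 and 8.87 FPKM against 7.07 and 7.55 FPKM (-0.45, limma adjusted p = 0.263). Of the 75-base stretches of Snrpa 11.3% occur in 6 other genes, which took 27.3% to 28.3% of the summed fragments. Snrpb2 (the U2 B'' protein) held 17.7 and 21.2 FPKM against 15.8 and 14.7 FPKM (-0.34, limma adjusted p = 0.284). The other U1 and U2 genes of the family, Snrpc (-0.12) and Snrpa1 (0.00), were not called.

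None of the 4 snRNP calls held with each library left out. Snrpd1 lost its call in all 4 cases, at 0.21 (without shNC-1), 0.34 (without shNC-2), 0.19 (without shNAT10-1) and 0.35 (without shNAT10-2). Snrpb kept its call only without shNAT10-1 and stood at 0.27 (without shNC-1), 0.28 (without shNC-2) and 0.17 (without shNAT10-2). Snrpb2 kept it only without shNC-1 and stood at -0.21 (without shNC-2), -0.40 (without shNAT10-1) and -0.29 (without shNAT10-2). Snrpa kept it only without shNC-2 and stood at -0.28 (without shNC-1), -0.40 (without shNAT10-1) and -0.49 (without shNAT10-2). The summed level of the family overlapped between the groups, at 337 and 344 against 346 and 334 FPKM.

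Among the Prpf genes 1 of 13 was higher and 1 lower, beside 11.1% and 10.6% of expressed protein-coding genes. Prpf18, a factor of the second catalytic step, held 8.88 and 8.73 FPKM in shNC against 5.70 and 6.04 FPKM in shNAT10. The libraries of each group agreed closely, and the log2 fold change was -0.58 (SE 0.10), with an adjusted p = 0.117 in limma and an adjusted p = 0.0059 in limma-voom. It stayed called with each library left out, at -0.62 to -0.54. Prpf18 lies at chr2:4622058-4652113 on the minus strand (GRCm38, GENCODE M21), and none of its 75-base stretches occurs in another gene. Prpf19, the ubiquitin ligase that gives its name to the complex acting at spliceosome activation, held 20.4 and 19.2 FPKM against 23.2 and 25.8 FPKM, with a log2 fold change of 0.30 (limma adjusted p = 0.253). It was called only with all libraries or without shNAT10-1, and stood at 0.35 (without shNC-1), 0.26 (without shNC-2) and 0.23 (without shNAT10-2). Prpf6, a bridge of the tri-snRNP, held 12.4 FPKM in both shNC libraries and 11.7 and 12.9 FPKM in shNAT10 (-0.01). Prpf8, the protein at the catalytic centre of the spliceosome, stood at 11.7 and 9.15 against 8.62 and 8.52 FPKM (-0.27, limma adjusted p = 0.455). The other 9 Prpf genes lay between -0.10 and 0.24, and the family sums were 115 and 112 FPKM in shNC against 115 and 116 FPKM in shNAT10.

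**Figure D4:**
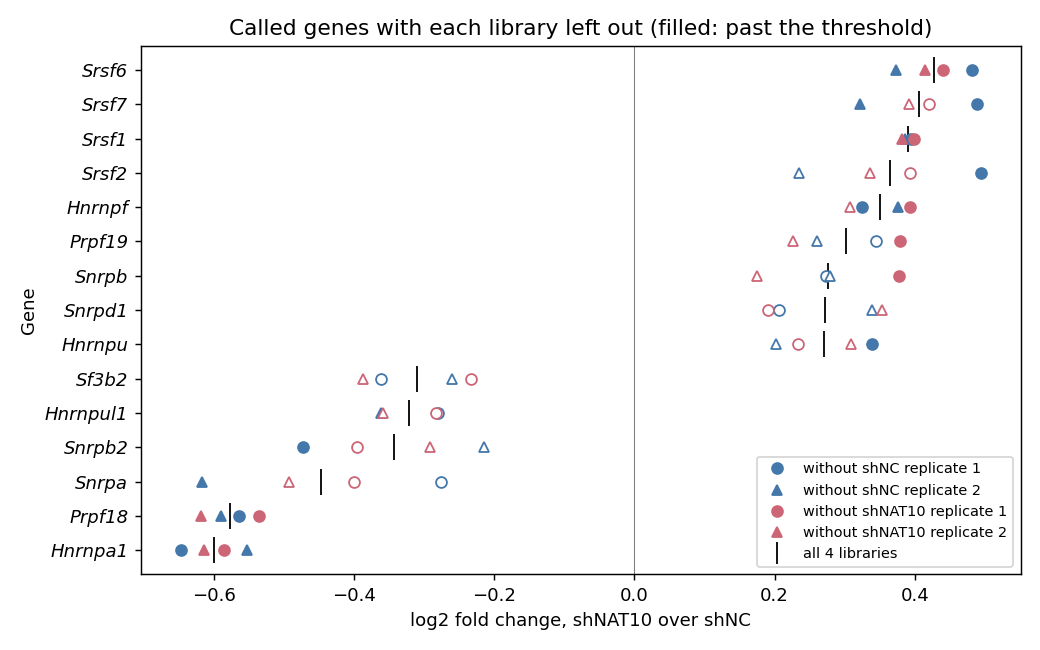
Log2 fold change of the 15 called genes when each library in turn is left out (circle or triangle for replicate 1 or 2, blue for shNC and red for shNAT10), filled where the gene is still called, with a black line for the value from all 4 libraries. Srsf1, Srsf6, Hnrnpa1 and Prpf18 have 4 filled points each, and Sf3b2 and Snrpd1 have none.

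Srsf1, Srsf6, Hnrnpa1 and Prpf18 were also the genes called under each of the 14 alternative settings examined, 1 of which, median-ratio rescaling, gave all 4 libraries the same factor (1.004) and so tested nothing. In limma without the variance trend the other 11 called genes, Srsf2, Srsf7, Hnrnpu, Hnrnpf, Hnrnpul1, Sf3b2, Snrpd1, Snrpb, Snrpb2, Snrpa and Prpf19, lost their calls at the same fold changes. When the FPKM were rescaled to the same total without the rRNA-related loci, Hnrnpul1 (-0.25), Sf3b2 (-0.24), Snrpb2 (-0.27) and Snrpa (-0.38) were no longer called, and Hnrnph2, Snrpd2 and Prpf39 were called higher. At least 10% of the 75-base stretches were shared with other genes in 19 of the 65 genes, and no call was tested with such reads set apart. For Srsf2 this was 29.0%, from the overlapping genes Mettl23 and Mfsd11, and those genes took 29.8% to 30.9% of the summed fragments in each library. Srsf1 shared 0.480% of its stretches with Gm11508, whose share of the summed fragments was 9.59% to 10.2%. Srsf6, Srsf7, Hnrnpu, Snrpb, Prpf18 and Prpf19 shared none.

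The other genes of the splicing machinery, taken from lists of known factors, are given beside the shares over all genes, 8.41% higher and 7.83% lower. Over expressed protein-coding genes, the comparison used for the families, the shares were 11.1% and 10.6%. Of 66 tested genes for other core spliceosome proteins, 5 were higher and 6 lower, near the shares over all genes, with a median log2 fold change of -0.02. Snrnp27, a tri-snRNP protein, fell from 29.9 and 27.6 FPKM to 20.2 and 19.4 FPKM (-0.54). Crnkl1, of the Prp19-related complex, fell from 20.6 and 21.2 FPKM to 16.5 and 16.2 FPKM (-0.35), and Syf2, also found in active spliceosomes, from 34.3 and 38.0 FPKM to 24.5 and 28.8 FPKM (-0.44). Eftud2, the GTPase of the U5 snRNP, rose from 16.9 and 15.7 FPKM to 20.4 and 22.2 FPKM (0.38). Ncbp2, the cap-binding subunit of the nuclear cap-binding complex, rose from 8.09 and 10.6 FPKM to 14.34 and 13.98 FPKM (0.61). Their limma adjusted p-values lay between 0.106 and 0.206. Snrnp27 and Crnkl1 stayed called with each library left out, but Crnkl1, Syf2 and Eftud2 lost their calls without the variance trend. Syf2 lost its call without shNC-1 (-0.52), shNC-2 (-0.37) or shNAT10-1 (-0.32), Eftud2 without shNC-2 (0.33) or shNAT10-2 (0.33), and Ncbp2 without shNAT10-1 (0.59) or shNAT10-2 (0.63).

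Among 41 tested splicing regulators outside the SR and hnRNP symbols, 6 were higher and 2 lower, with a median of 0.09. Syncrip, an hnRNP-like protein (hnRNP Q), rose from 23.2 and 23.4 FPKM to 30.9 and 31.4 FPKM (0.42, limma adjusted p = 0.123) and stayed called with each library left out. Mbnl1, a muscleblind splicing regulator, rose from 14.4 and 15.8 FPKM to 22.4 and 20.3 FPKM (0.50) and lost its call without shNAT10-1 (0.43). Qk, a STAR-family RNA-binding protein, rose from 7.33 and 8.09 FPKM to 12.1 and 10.4 FPKM (0.54), with the call kept only without shNAT10-2 and values of 0.47 (without shNC-1), 0.61 (without shNC-2) and 0.43 (without shNAT10-1). Rbm10 fell from 31.8 and 31.4 FPKM to 23.8 and 25.9 FPKM (-0.35), with its call lost without shNC-1 (-0.34). Taf15, an RNA-binding protein, fell from 13.6 and 12.5 FPKM to 10.1 and 8.54 FPKM (-0.49), with the call lost without shNC-1 (-0.42), shNC-2 (-0.55) or shNAT10-2 (-0.37). Rbm10 and Taf15 also lost their calls without the variance trend, and Syncrip, Mbnl1 and Qk kept theirs.

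The remaining lists were small. Of 10 minor spliceosome genes, which serve the rare U12-type introns, 1 was higher and 1 lower with a median of -0.21. Rnpc3, a protein of the U11/U12 particle, rose from 3.91 and 3.71 FPKM to 5.46 and 5.40 FPKM (0.50, limma adjusted p = 0.167) and was called in each leave-one-out fit. Zrsr1 fell from 3.01 and 2.75 FPKM to 1.36 and 2.09 FPKM (-0.74) and was called only with all libraries or without shNAT10-2, at -0.67 (without shNC-1), -0.80 (without shNC-2) and -0.44 (without shNAT10-1). Of 23 tested SR-related proteins and SR kinases, 1 was higher (Rbm25, 0.31) and 2 lower (Clk3, -0.36, and Scaf4, -0.53), with a median of 0.01. Of 19 genes for snRNP assembly, 0 were higher and Gemin7, of the SMN complex, was lower (-0.49), with a median of 0.13. Of 15 genes for the exon junction complex and nonsense-mediated decay, Upf3b was higher (0.63) and Rbm8a, the Y14 protein, lower (-0.41), with a median of 0.01. Clk3, Gemin7 and Rbm8a lost their calls whichever library was left out, whereas Rbm25 kept its call only without shNC-2, Scaf4 only without shNAT10-1 and Upf3b only without shNC-1. For Rbm25, Clk3, Scaf4, Gemin7, Upf3b and Rbm8a in turn the log2 fold changes ran over 0.27 to 0.35, -0.45 to -0.27, -0.74 to -0.33, -0.60 to -0.37, 0.47 to 0.80 and -0.52 to -0.29. Without the variance trend Rnpc3 and Upf3b kept their calls, and Zrsr1, Rbm25, Clk3, Scaf4, Gemin7 and Rbm8a lost theirs. Rescaling without the rRNA-related loci also ended the calls of Zrsr1 (-0.67), Clk3 (-0.29), Scaf4 (-0.47) and Rbm8a (-0.34). The replicate block ended those of Rbm25 and Clk3, and no filter on low values that of Scaf4.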

How the data were processed

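Long RNA-seq was carried out on 2 shNC and 2 shNAT10 FGSC libraries. The authors deposited FPKM for each gene and library, from paired-end reads trimmed with cutadapt and aligned to mm10 with HISAT2. The FPKM steps show that the authors divided by a factor for each library other than its fragment total, and these factors already equal median-ratio size factors up to a constant. The study's methods describe rRNA depletion and the labels describe mRNA isolation. The counting tool and annotation are not given in the sources used here. Columns of the authors' own DESeq2 comparison (fold changes and p-values) were not used.

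Genes with a mean of at least 0.1 FPKM (20116) were compared on log2(FPKM + 0.1) with limma 3.58.1 (trended eBayes, two-sided, R 4.3.3), with no block, and p-values were adjusted by Benjamini-Hochberg over all genes tested. Fold changes are on this scale and understate those of low genes. The call needed an unadjusted p no higher than 0.05 together with a fold change above 1.2. Exon lengths from GENCODE M21 gave whole fragments (within 0.02) for 96.0% to 96.6% of low values, and limma-voom on these fragments gave 1580 genes with an adjusted p under 0.05. Depth set a floor of 3 fragments, equal to 0.196 to 0.255 FPKM for a gene of 1 kb of exon, for counting error only. Stretches of 75 bases shared with other genes were counted over GENCODE M21 transcripts. The scripts were tested on simulated data.

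Named in the text were Nat10, called genes with a mean of at least 1 FPKM (of the lists, the 5 of smallest p), and in each family the 3 most abundant genes and those with the largest rise and fall. 1 gene that the rule would name is not reported here by name. Other genes named were chosen after their values were seen. The genes, gene lists and markers were chosen with earlier results of these data known. Alternatives changed the pseudocount, the filter, the scaling, the variance model, the unit, the replicate block and the libraries included. A fit that leaves out a library has a group of 1, assumed to vary like the other group.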

Additional observations from a re-analysis of the deposited data

How the results depend on the processing

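Of the 63 genes tested, 9 were higher and 6 lower. Rescaling to equal FPKM sums after the rRNA-related loci were set aside gave 12 higher and 2 lower (all genes 2137 and 1144, against 1691 and 1576), a median of 0.0942 (all genes 0.07), and turned Prpf6 (0.0563) and Sf3b1 (0.0654) above 0, as quantile normalization did Prpf6 (0.0075), which also ended the calls of Srsf2, Sf3b2 and Snrpb2. Limma without the trend called only Srsf1, Srsf6, Hnrnpa1 and Prpf18, 2 higher and 2 lower (all genes 1536 and 1215), and limma-voom on recovered fragments 10 and 8 (all genes 2019 and 1875). Other pseudocounts (0.01 and 1) and no filter on low values kept all 15 calls, and median-ratio rescaling had the same factor in all 4 libraries and tested nothing. A filter at a mean of 1 FPKM lost Snrpb and Snrpd1. Under that filter 1 of the 63 genes had a limma adjusted p under 0.05, and the share of all genes doing so is not given here. With each library left out (a group of 1, assumed to vary like the other) the counts ran from 3 to 9 higher and 2 to 6 lower (all genes 1108 to 1734 and 899 to 1659), Nat10 from -1.35 to -0.83, Prpf6 from -0.0848 to 0.0583, Sf3b1 from -0.0621 to 0.053, Snrpg from -0.24 to 0.0174 and Srsf4 from -0.42 to 0.0111. Replicate numbers were not shown to pair the samples (r = 0.01 between the deviations of same-numbered libraries), and with the replicate block 6 were higher and 5 lower (Snrpd1, Snrpb, Snrpb2 and Prpf19 lost). The causes were not tested. Counting error limits mainly genes with few fragments, such as Srsf12.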
